A study of Mus musculus with 6 samples.

Results

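Matrix metalloproteinases are zinc-dependent enzymes that cleave collagens, laminins and other proteins outside the cell, and most are secreted as inactive precursors. The urokinase system works beside them: urokinase, held at the cell surface by its receptor, turns plasminogen into plasmin, which breaks down fibrin and can activate several of the precursors. Tissue inhibitors such as Timp1 bind the active enzymes. In stratified epithelia these genes are known from basal cells at wound edges, from tumour margins, and from the fibroblasts and immune cells beneath.

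The 10 genes described here are Mmp3, Mmp10, Mmp13, Mmp9, Mmp2, Mmp7 and Mmp14 of the metalloproteinase family, Plau and Plaur of the urokinase system, and the inhibitor Timp1. They were taken by name from the gene column of the scanner files, where 15 of the 41174 probes carried these names. All 10 genes and all 15 probes passed the filter on dim signals, so they stand for 10 of 20554 genes tested. The samples were epithelial sheets of the mouse forestomach, which a stratified squamous epithelium lines. The 3 mutant mice carried K5-CreER, a recombinase that tamoxifen activates and the keratin 5 promoter drives in basal cells. They also carried the Rosa26Sox2 allele on both chromosomes (K5-CreER;Rosa26Sox2/Sox2). Sox2 from this allele is switched on only in cells that express the recombinase and in their progeny. The 3 control mice carried K5-CreER without the Sox2 allele. Mice of both groups were on a mixture of 129/Sv and C57/BL6, received 2 doses of tamoxifen at 7 weeks of age and are given as 12 weeks old. Each of the 6 arrays carried a mouse's RNA in Cy5 and, in Cy3, the same reference RNA, pooled from 11 mouse cell lines. The question of the comparison was what raised Sox2 does to gene expression in this epithelium.

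Each value is the log2 ratio of the sample to the reference. Differences are given as mutant minus control, so that a positive difference means a higher level in mutants. The sample channel was well above background on up to 76.2% of probes (mutant 1) and on as few as 62.6% (control 3), and the median signal was 11.3 to 12.4 times the background on the mutants and on controls 1 and 2 and 4.66 times on control 3. Mutants 2 and 3 were nearly the same (scaled median absolute difference 0.104 log2 units over the tested genes), and so were controls 1 and 2 (0.16), against 0.325 to 0.731 for the other pairs. If the arrays of such a pair came from the same RNA, the p-values below are too small. The Y-linked gene Ddx3y had log2 ratios of 1.04, -4.74 and -4.72 on mutants 1, 2 and 3 and of 1.26, 1.33 and 1.04 on the controls, and Xist ran the opposite way, so mutant 1 resembled the controls and not the other mutants in these genes. Mutants were on slide 3 and controls on slides 1 and 2, so the slide cannot be told apart from the genotype, and control 3 was scanned on another day than the rest. Sox2 had log2 ratios of 5.67, 5.83 and 5.95 in mutants and 6.26, 6.09 and 6.38 in controls, a difference of -0.43 (SE 0.14; limma, adjusted p = 0.143), but its probe starts at position 1846 of the transcript, past the coding part, and does not check the transgene. Gt(ROSA)26Sor, which is transcribed from the locus of the insertion, fell in all 3 mutants, by 3.69 on the log2 scale (SE 0.15, adjusted p = 0.00116). All 7 squamous markers, among them Krt5, Krt14 and Trp63, were well above background on every array, while smooth muscle and glandular stomach genes were detected too.

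Some of the probes and promoters of these genes are shown first. Mmp7, the gene whose difference passed the threshold, was read by a single probe on chromosome 9, from 7697641 to 7697700 in mm9, the build of the file headers, at position 690 of its transcript in the coding part. Plaur, which came nearest to the threshold among the others, was read by a pair of probes. The one shown is the second, not the one that represents the gene in the test. It lies on chromosome 7 from 25259315 to 25259374 in mm9, at position 700 of the transcript.
Mmp7 probe: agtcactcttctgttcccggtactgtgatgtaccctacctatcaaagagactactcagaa
Plaur probe: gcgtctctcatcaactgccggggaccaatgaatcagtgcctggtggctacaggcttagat

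Mmp3, Mmp10, Mmp13 and Mmp7 lie close together on chromosome 9. Mmp3, Mmp10 and Mmp13 were high on mutant 1, while Mmp7 was lower there than on the other mutants. The 100 bases before their starts, from RefSeq on the plus strand of GRCm38.p6, each hold the letters TGAGTCA or their reverse complement TGACTCA, the motif of AP-1, a transcription factor of stress and growth signals. The capitals mark it. The RefSeq table lists 2 starts for Mmp7, and the second, not printed, holds none of the motifs searched.
Mmp3, chr9:7445722-7445821: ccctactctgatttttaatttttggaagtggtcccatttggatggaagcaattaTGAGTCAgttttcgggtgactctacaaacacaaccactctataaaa
Mmp10, chr9:7502242-7502341: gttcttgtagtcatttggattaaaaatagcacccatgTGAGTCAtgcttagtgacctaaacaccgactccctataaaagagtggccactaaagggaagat
Mmp13, chr9:7272414-7272513: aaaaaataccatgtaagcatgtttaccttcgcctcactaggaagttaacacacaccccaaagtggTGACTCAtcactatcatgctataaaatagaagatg
Mmp7, chr9:7691990-7692089: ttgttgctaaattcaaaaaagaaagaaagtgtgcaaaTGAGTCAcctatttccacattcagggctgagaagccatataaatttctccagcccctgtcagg

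Over the 250 bases before the start, on both strands, this AP-1 motif was found in 5 of the 7 genes that have a promoter entry (Mmp3, Mmp7, Mmp10, Mmp13 and Plaur), which is 5 of their 8 promoter windows, against 4.46% of all 32851 windows in the RefSeq table. It was not among these letters for Mmp14 and Timp1, and Mmp2, Mmp9 and Plau were not matched to an entry. The motif TATAAA of the TATA box was found before 4 of them, the same 4 genes as printed above, against 12.4% of all windows. The letters CATTGT of the motif bound by SOX factors were found before 1, Mmp7, against 10.7%. A match describes the letters and is not a measured binding site.

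The proteolysis genes stood mostly higher in the mutant epithelium. Of the 10 genes, 9 had a positive difference, with a median over the 10 of 1.16, against 0.0053 over all genes tested and 50.6% of all genes with a positive difference. In 8 of 10 every mutant value lay above every control value, as it did for 19.6% of all genes, and the exceptions were Mmp2 and Mmp14. The opposite order was seen in 0 of 10 and in 18.2% of all genes, so that 37.9% of all genes had groups without overlap. At an unadjusted p under 0.05, 6 of the 10 were higher in mutants, against 12.1% of all genes. After adjustment over all genes, 1 of the 10 passed the threshold of 0.05, Mmp7, against 1.4% of all genes called higher, 1.43% called lower and 2.82% called in either direction. In the exact permutation test (two-sided), p was 0.1 for each of the 8 genes without overlap, the smallest p that 3 arrays against 3 allow, 0.3 for Mmp14 and 1 for Mmp2.

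**Figure D1:**
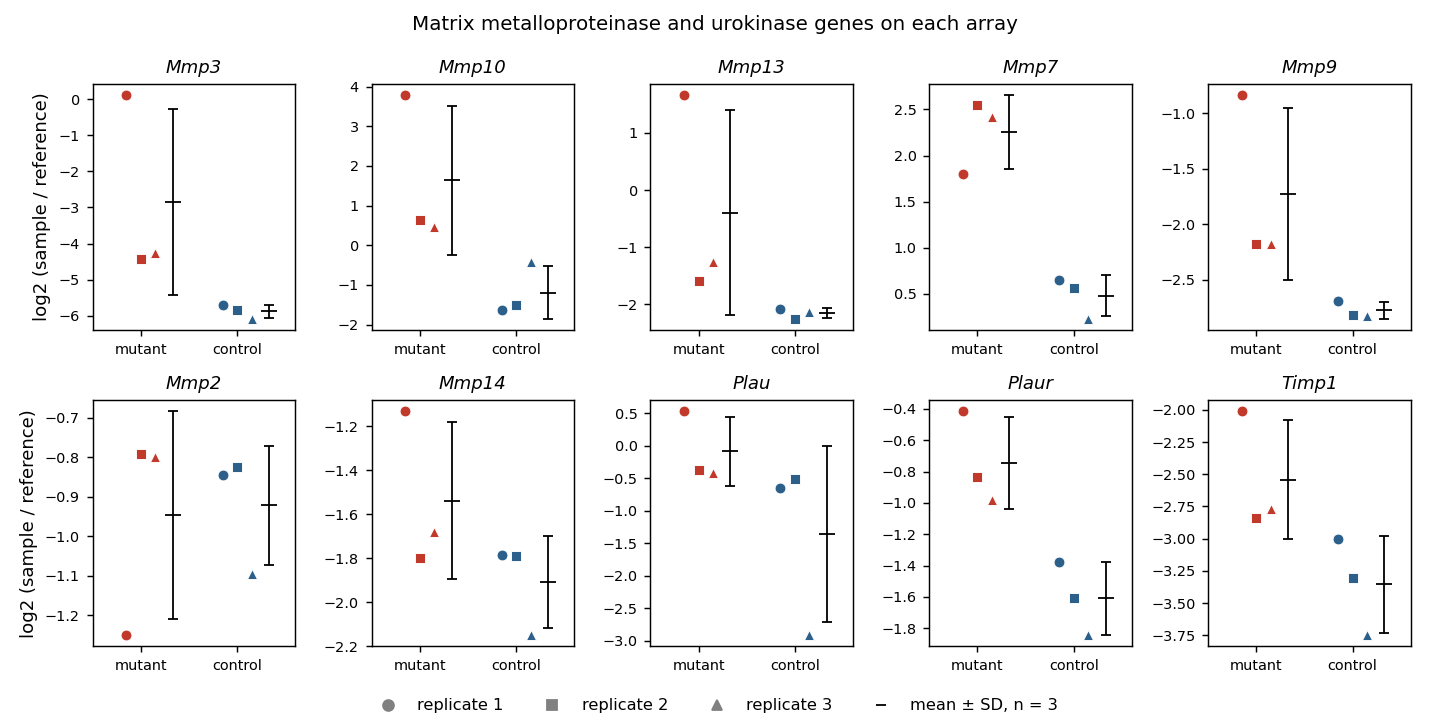
Log2 ratio of sample over reference for the 10 genes, with mutant arrays in red on the left and control arrays in blue on the right of each panel. Symbols give the replicate number, black bars the mean ± SD of 3 arrays, and each panel has its own axis. Mutant 1 (red circle) lies far above the other mutants for Mmp3, Mmp10 and Mmp13 and below them for Mmp7 and Mmp2.

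The stromelysins, which cut proteoglycans, laminin and fibronectin and activate other proenzymes, showed the widest differences and the widest spread. Mmp3 (chromosome 9, 7455751 to 7455810, mm9) had log2 ratios of 0.12, -4.42 and -4.27 on mutants 1, 2 and 3, against -5.71, -5.85 and -6.08 on controls 1, 2 and 3. Mutant 1 stood far above all other arrays, and mutants 2 and 3 lay between it and the controls. In raw signal this was 23618 on mutant 1, 971 and 1069 on the other mutants, and 339, 338 and 86.3 on the controls, where control 3 was not well above background. The difference was 3.02 (SE 1.19), 8.12-fold, with an adjusted p of 0.194 (limma), which missed the threshold of 0.05. Without mutant 1 it was smaller, at 1.53, but its spread was smaller too, and the adjusted p was then 0.0207. That spread is pooled over mutants 2 and 3 and the controls. Mutants 2 and 3 were nearly the same arrays, as were controls 1 and 2, so this p-value may be too small.

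Mmp10 (chromosome 9, 7510011 to 7510070, mm9), the second stromelysin, had log2 ratios of 3.79, 0.64 and 0.47 in mutants, against -1.63, -1.51 and -0.43 in controls. The pattern was that of Mmp3, with mutant 1 highest, the other mutants in between and no overlap, but here control 3 was the highest control. The difference was 2.83 (SE 0.92), 7.09-fold, with an adjusted p of 0.144 (limma), and without mutant 1 it was 1.75 (adjusted p = 0.1). The control signal was low, so these folds are uncertain. Raw sample signals were 108, 116 and 119 on the controls, though well above background, against 9333, 547 and 475 on the mutants. Controls 1 and 2 had sample-channel log2 intensities of 6.80 and 6.95, near the lowest signals above background there, 6.48 and 6.36. The reference signal was also higher on mutant 1, at a log2 intensity of 9.22 against 8.22 to 8.46 on the other arrays.

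Mmp13, the main collagenase of rodents, which cuts fibrillar collagen (chromosome 9, 7282762 to 7282821, mm9), had log2 ratios of 1.67, -1.59 and -1.27 in mutants, against -2.08, -2.25 and -2.14 in controls. The SD was 1.79 in mutants, with mutant 1 high, and 0.09 in controls (n = 3 each), and the groups did not overlap. The difference of 1.76 (SE 0.83) had an adjusted p of 0.253, and without mutant 1 it was 0.73 (adjusted p = 0.0767).

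The gelatinases cut denatured collagen and the type IV collagen of basement membranes. Mmp9 (chromosome 2, 164780303 to 164780362, mm9) had log2 ratios of -0.83, -2.17 and -2.17 in mutants and -2.69, -2.81 and -2.82 in controls. All mutants lay above all controls, mutant 1 by the widest margin. The difference was 1.05 (SE 0.37, adjusted p = 0.165), 2.07-fold, and without mutant 1 it was 0.60. A second Mmp9 probe, printed in 10 spots on each array, gave 0.84.

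Mmp2 (chromosome 8, 95376840 to 95376899, mm9), a gelatinase made mostly by stromal cells, had log2 ratios of -1.25, -0.79 and -0.80 in mutants and -0.84, -0.82 and -1.09 in controls. The groups overlapped, and mutant 1 was the lowest array. The difference was -0.03 (SE 0.17, adjusted p = 0.941), and its sign turned under 8 of 23 alternatives, up to 0.13 without mutant 1.

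Mmp7, matrilysin, a small enzyme known from glandular epithelia and their tumours, rose in all 3 mutants. Its log2 ratios were 1.80, 2.55 and 2.42 in mutants, against 0.65, 0.56 and 0.23 in controls. The groups were well apart, and unlike Mmp3, Mmp10 and Mmp13 its lowest mutant was mutant 1. The mean was 2.26 ± 0.40 in mutants and 0.48 ± 0.22 in controls (SD, n = 3 each), a difference of 1.78 (SE 0.23), 3.43-fold, with an adjusted p of 0.0224 (limma).

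The signal behind this call was low. The probe was well above background on all 3 mutants but on 1 of 3 controls, with raw sample signals of 347, 664 and 628 in mutants and 93.7, 96.1 and 67.3 in controls. The control values in the sample channel, at log2 intensities of 6.65 to 6.75, lay close to the lowest signals above background on those arrays, 6.36 to 6.68. The sample channel alone gave 4.61-fold, and the reference signal was higher on mutant arrays too, by 0.42 on the log2 scale. The mutants alone were enough for the probe to pass the filter on dim signals. The folds of 3.43 and 4.61 are set against controls at or near background, so they are uncertain. The call was lost without control 1 (limma, adjusted p = 0.0972), control 2 (0.106), mutant 2 (0.114) or mutant 3 (0.116). It held without control 3 (0.0296) or mutant 1 (0.014). Those fits keep both pairs of nearly the same arrays, so their p-values may be too small. With each pair averaged the adjusted p was 0.436, and with slide as a random block 0.404. Over 22 alternatives the difference ran from 1.63 to 2.04 and the adjusted p from 4.96e-05 to 0.436.

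Mmp14, the membrane-bound metalloproteinase that activates pro-Mmp2 at the cell surface (chromosome 14, 55059969 to 55060028, mm9), had log2 ratios of -1.13, -1.80 and -1.68 in mutants and -1.79, -1.79 and -2.15 in controls. Mutant 1 stood above the rest, while mutant 2 lay just below controls 1 and 2. The difference was 0.37 (SE 0.21, adjusted p = 0.336), and 0.49 by a second probe, in which the groups did not overlap.

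**Figure D2:**
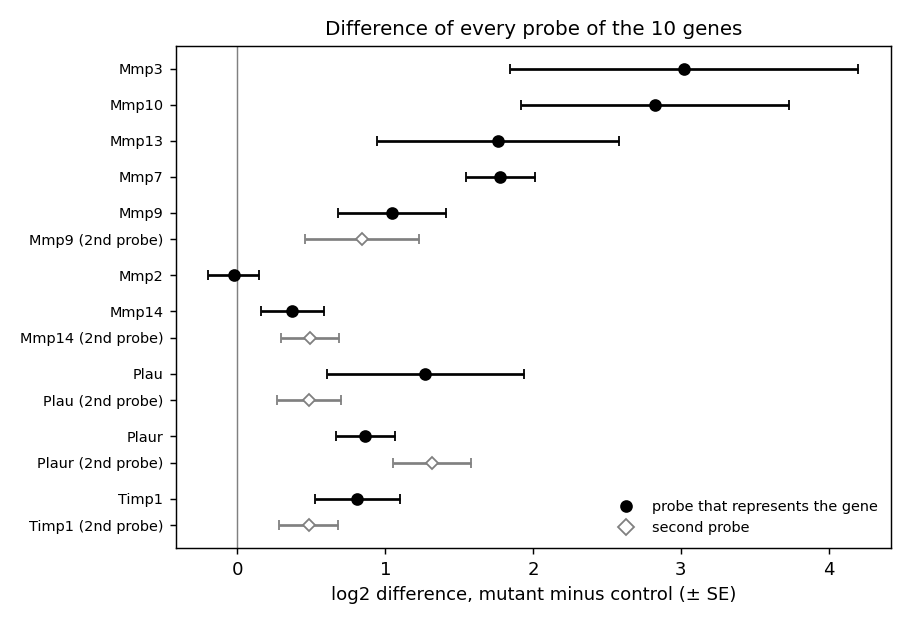
Difference in log2 ratio, mutant minus control, with its standard error for each of the 15 probes. Filled circles are the probes that represent a gene and open diamonds the second probes of 5 genes, which had the same sign as the first in all 5. Mmp3 and Mmp10 have the largest differences and the widest errors, and the error of Mmp7 is small beside its difference of 1.78.

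Urokinase and its receptor both had positive differences that missed the threshold. Plau, urokinase itself (chromosome 14, 21662242 to 21662301, mm9), had log2 ratios of 0.53, -0.37 and -0.41 in mutants, against -0.65, -0.50 and -2.91 in controls. Control 3 was far below every other array, and mutants 2 and 3 lay close to controls 1 and 2. The difference was 1.27 (SE 0.67, adjusted p = 0.299). It was 0.49 without control 3 and 0.19 without control 3 and mutant 1, and the second probe gave 0.49.

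Plaur, the urokinase receptor (chromosome 7, 25260569 to 25260628, mm9), had log2 ratios of -0.42, -0.83 and -0.98 in mutants and -1.37, -1.61 and -1.84 in controls. The groups did not overlap, and no array stood far from its group. The difference was 0.87 (SE 0.20), 1.82-fold, with an adjusted p of 0.0801, which missed the threshold, and left-out arrays moved it between 0.70 and 0.98. The second probe, whose sequence is given above, had log2 ratios of -0.48, -0.98 and -1.17 in mutants and -1.84, -2.11 and -2.63 in controls. Its difference was 1.32, with an adjusted p over all probes of 0.0579.

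Timp1, the secreted inhibitor of most metalloproteinases (chromosome X, 20451675 to 20451733, mm9), had log2 ratios of -2.01, -2.84 and -2.77 in mutants and -3.00, -3.31 and -3.75 in controls. Mutants lay above controls, but mutants 2 and 3 were only slightly above control 1. The difference was 0.81 (SE 0.29, adjusted p = 0.169), and 0.48 by the second probe.

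Mutant 1 stood apart from the other mutants in several of these genes. Against the mean of mutants 2 and 3 it was 22.1-fold higher in Mmp3, 9.43-fold in Mmp10, 8.54-fold in Mmp13 and 2.53-fold in Mmp9. Ordered by this difference over 20503 genes, Mmp3 came at place 4, Mmp10 at 16 and Mmp13 at 21. Mmp7 was lower on mutant 1 than on the other mutants, by a difference of -0.69. The mean of mutants 2 and 3 lay above the control mean in 10 of the 10 genes. It did so by 2.89-fold for Mmp3, 3.35-fold for Mmp10, 1.66-fold for Mmp13, 4.03-fold for Mmp7 and 1.09-fold for Mmp2. These 2 arrays were nearly the same, and the share of all genes with this order was not computed. Without mutant 1, 2 of the 10 genes passed the threshold (Mmp3 and Mmp7), with 609 genes called over the table. That fit sets mutants 2 and 3, nearly the same arrays, against the controls, and this pair differed from every control in Ddx3y and Xist. If the pair came from the same RNA, the p-values of that fit are too small. Without mutant 1 and control 3, which leaves the 2 pairs of nearly the same arrays, 6 of 10 passed (Mmp3, Mmp7, Mmp9, Mmp10, Mmp13 and Plaur), with 7726 genes called over the table.

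**Figure D3:**
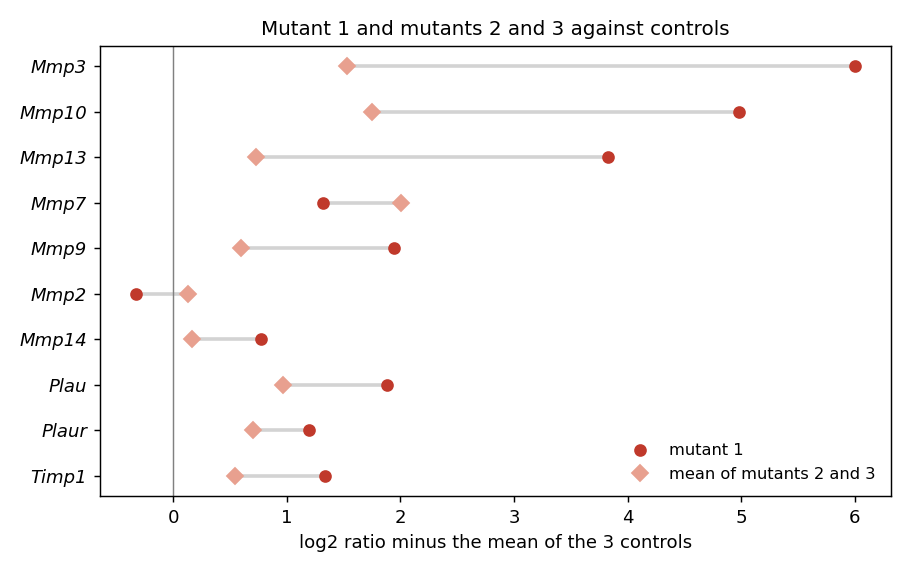
Log2 ratio of mutant 1 (dark circles) and the mean of mutants 2 and 3 (light diamonds) for each of the 10 genes, after subtraction of the mean of the 3 controls, which is the line at 0. Mutant 1 lies to the right for 8 genes, most for Mmp3, and to the left for Mmp7 and Mmp2.

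Markers of other cells also differed between the mutants. In bulk RNA, fewer cells of a type and less RNA per cell cannot be told apart. Of 7 neutrophil markers tested, 1 passed the threshold, Retnlg, a resistin-like protein of granulocytes. It was well above background on 3 mutants and 0 controls, so it entered the test through the mutants alone and its call adds no support. Its ratio was 12.9-fold higher in mutants (limma, adjusted p = 0.00598), with a reference signal that was higher on mutant arrays too, by 1.27 on the log2 scale. In the sample channel alone it was at least 28.8-fold higher, or at least 13.3-fold without mutant 1. The neutrophil list had 7 of 8 genes above background on each mutant and 3 on each control. Over the 7 tested genes the mean sample-channel log2 intensity was 12.6 on mutant 1, 9.67 to 9.77 on mutants 2 and 3, and 7.24 to 8.42 on controls. Retnlg, Ngp and Csf3r entered this mean through the mutants alone, so part of the gap to the controls follows from the filter. Ngp and Csf3r, too, were above background on 0 of 3 controls, and Elane did not enter the test. The other 4, Camp, Ltf, Mpo and Cxcr2, were above background on at least 1 control and did not pass. Of 12 macrophage markers, 2 were called higher, Cd68 by 1.49 (limma, adjusted p = 0.0168) and Csf1r by 0.75 (0.0489), against 1.4% of all genes. The list's median difference was 0.73, with 10 of 12 positive. C1qc (-0.20) and Aif1 (-0.18) ran the other way, and C1qc was lower in every mutant than in every control. Adgre1 had a difference of 0.31 (adjusted p = 0.493). Mutant 1 was above the mean of mutants 2 and 3 by a median of 1.68 in the neutrophil list and 0.43 in the macrophage list, and below it by a median difference of -1.89 in smooth muscle genes. The same median was 0.61 in endothelial, 0.19 in fibroblast, 0.30 in squamous and -0.76 in glandular stomach markers. Within the neutrophil list it was not uniform, since Ltf was lower on mutant 1, at -0.62, and Camp was higher by 3.92. The part of these cells in the metalloproteinase values was not tested.

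Stromal and epithelial markers gave no call. Fibroblast markers had a median difference of 0.71, with 0 of 10 called (limma, and 0 at an unadjusted p under 0.05), and their list medians were -1.37, -1.93 and -1.81 on mutants against -1.89, -2.01 and -3.58 on controls. Control 3 was thus low in fibroblast genes, as it was in Plau and in genes of the glandular stomach, whose list median was 0.40 there against 3.85 and 4.07 on the other controls. It was low, too, in smooth muscle (-0.83 against 1.74 and 1.28) and endothelial genes (1.02 against 2.26 and 2.19). Mutant 1 shared the low smooth muscle level, at -0.95 against 1.46 and 1.24 on mutants 2 and 3. Smooth muscle markers had a median difference of -0.10, with 0 of 6 called. Squamous markers had a median difference of -0.56, with 0 of 7 called and 3 at an unadjusted p under 0.05. Endothelial markers had a median of 0.28 and 0 of 5 called, with 0 at an unadjusted p under 0.05.

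Few of the remaining genes of the system passed. Of 10 other metalloproteinases tested, 0 passed the threshold in limma, with 3 at an unadjusted p under 0.05, and their median difference was 0.19. Mmp8, the collagenase of neutrophils, was 1 of the 2 genes named by the smallest p of that list. Its log2 ratios were 5.34, 2.05 and 1.79 in mutants and -0.97, -0.83 and -0.98 in controls. Its probe was above background on 0 of 3 controls, so it entered the test through the mutants alone, and in the sample channel it was at least 11.8-fold higher in mutants, or 4.77-fold without mutant 1 and 18.5-fold without mutant 2. The fitted ratio difference of 3.99 (SE 0.91, adjusted p = 0.0788) is set against controls at background and is no measured fold. Mmp12, the elastase of macrophages, came next with a difference of 0.54 (adjusted p = 0.12).

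Of the plasminogen activation genes, 1 passed. Plat, the tissue-type activator, rose in mutants, with log2 ratios of -0.68, -1.20 and -1.23, against -2.66, -2.79 and -3.16 in controls. The groups were far apart on this scale, and the difference of 1.83 (SE 0.21), 3.55-fold, had an adjusted p of 0.0167. The other 4 of the 5 tested did not pass, and the call of Plat was lost without control 1, control 2, mutant 2 or mutant 3. Plg itself, the substrate of both activators, did not pass the filter on dim signals. Lists of 8 inhibitors and 11 matrix substrates had 0 genes past the threshold (limma), with 4 and 1 at an unadjusted p under 0.05. Among inhibitors, Serpinb2, which blocks urokinase and is abundant in squamous cells, had a difference of -0.75 (adjusted p = 0.122), and Serpine2, protease nexin, one of 1.48 (adjusted p = 0.149). The median difference was -0.22 for inhibitors and 0.54 for substrates, whose smallest p were those of the basement membrane collagen Col4a2 (0.76, adjusted p = 0.183) and of elastin, Eln (0.54, adjusted p = 0.234).

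**Figure D4:**
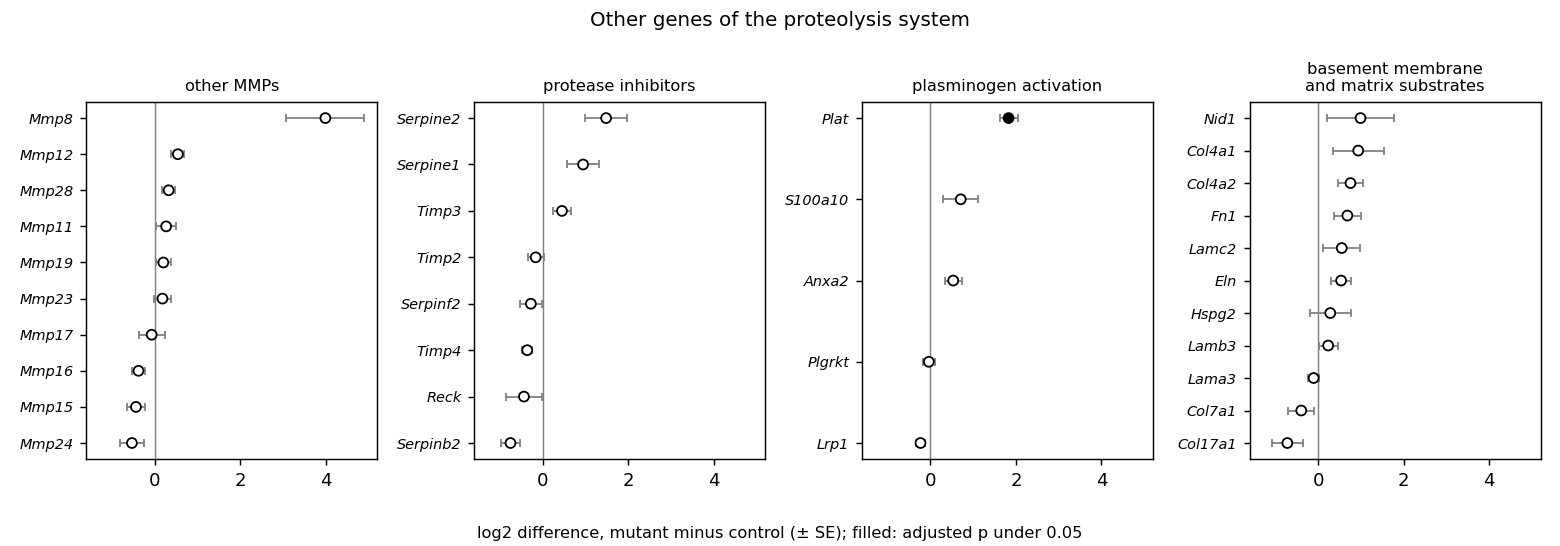
Difference in log2 ratio, mutant minus control, with its standard error for the other metalloproteinases, the protease inhibitors, the plasminogen activation genes and the matrix substrates that were tested. Filled circles mark genes with an adjusted p under 0.05, which here is Plat alone, at 1.83. Mmp8 lies furthest to the right, at 3.99, with an error of 0.91.

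The metalloproteinase genes clustered on chromosome 9 had differences of unequal size. In the order of the mm9 coordinates, the differences were 1.76 for Mmp13, 0.54 for Mmp12, 3.02 for Mmp3, 2.83 for Mmp10, 3.99 for Mmp8 and 1.78 for Mmp7. That of Mmp8 is set against controls at background, and Mmp7 was above background on 1 of 3 controls. Mmp1a, between Mmp3 and Mmp10, and Mmp20, between Mmp8 and Mmp7, were not well above background on any array. The probes of the cluster lie between 7282762 and 7697700. Of its 6 measured genes, 1 passed the threshold, and mutant 1 was the highest mutant in the 5 others.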

How the data were processed

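RNA of 3 mutant and 3 control forestomach epithelia had been hybridised in Cy5 against a common reference in Cy3, per the labels. The deposited spot intensity values come from Agilent Feature Extraction, per the file headers in version 10.7.3.1 for control 3 and 10.5.1.1 for the others; the submitters' processing notes name 9.1. A log ratio in the scanner files is log10, per the file headers, and was used, turned to log2, only as an alternative. A table of log2 ratios was also deposited, with no normalization named in the sources used here. Its direction was sample over reference, with slopes of 1.11 to 1.17 against the scanner values and column medians of 0.042, 0.043 and 0.039 for mutants and 0.052, 0.06 and 0.026 for controls; its centring stays unknown. Across probes its values for mutant 1 were closest to the scanner values of mutant 3 (r = 0.973, against 0.886 with those of mutant 1), and its values for mutant 3 to those of mutant 1 (0.969, against 0.881). Numbers here follow the scanner files.

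Mean signals and median backgrounds were corrected with normexp (offset 50) and normalized by loess within arrays in limma 3.58.1 under R 4.3.3, with control and outlier spots at no weight and then left out. Spots of a probe were averaged. Probes were tested if the Cy5 signal was well above background on at least 3 of 6 arrays, and each gene was represented by the probe of highest mean Cy5 intensity. Of all probes, 32728 (79.5%) were named through RefSeq, and the others kept the name in the files. Groups were compared with lmFit and eBayes, two-sided, with Benjamini-Hochberg adjustment over 20554 genes at a threshold of 0.05. "At least" folds set the mean sample-channel log2 intensity (loess, then Aquantile) against, per array, the probe's own signal or the dimmest signal that was well above background, whichever was higher; they leave the reference channel out, and no dyes were swapped. The number of arrays limits the precision. Pooling of RNA is not mentioned in the labels, and p-values cover only the spread among these 6 arrays, part of which may be technical.

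The 10 genes, the lists and the tests were chosen with earlier results of these data known. Named are the 10 genes, from each pathway list the genes past the threshold or else the 2 with the smallest p, the label checks Sox2 and Gt(ROSA)26Sor, and markers by their lists. Alternatives concerned background, normalization, filter, probe choice, batch, replicate block, weights and left-out arrays. The fitting steps were tested on simulated data.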

Additional observations from a re-analysis of the deposited data

How the results depend on the processing

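Over 23 alternatives, 9 of the 10 genes kept a positive difference in each alternative that gave a value (Mmp3 and Mmp7 gave none when signal was required on all 6 arrays), and 23 of 228 values passed the threshold. Mmp2, at -0.03, turned positive with the sample channel alone (0.0808), median centring (0.0734), array weights (0.0336), slide as a random block (0.0028) and without control 3 and mutant 1 (0.0391), and ran from -0.11 to 0.13 as arrays were left out in turn. Of the 10 genes, 1 was called; 0 were called with plain background subtraction, processed signals, the deposited table, signal required on all 6 arrays, slide as a random block, the replicate block or nearly the same arrays averaged, 6 with array weights, 6 without control 3 and mutant 1, and 0 to 2 as arrays were left out. Of the 34 pathway genes tested, 1 was called; 2 were called with plain subtraction, processed signals, the deposited table or scan day as a block, 0 with slide as a block or averaged arrays, 14 with array weights, 12 without control 3 and mutant 1, and 0 to 3 as arrays were left out. Over all genes, 580 were called, against 325 with processed signals, 303 with the sample channel alone, 264 with median centring, 4 with slide as a random block, 1481 with scan day as a block (the same as leaving out control 3), 131 with the replicate block, 8012 with array weights, 7726 without control 3 and mutant 1, 34 to 1481 as arrays were left out, and 0 with nearly the same arrays averaged (2194 at an unadjusted p under 0.05). Array weights were 0.19 for mutant 1 and up to 4.18 for mutant 3, and 0.101 for control 3. Deviations of same-numbered arrays from their group means correlated at 0.00476, 0.0195 and 0.126. This cannot decide whether the numbers pair the samples, since each group held nearly the same arrays and the numbering of mutants 1 and 3 differed between the sources. With the replicate block the adjusted p of Mmp7 was 0.0612 (limma). The cause of these shifts was not tested.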

Other observations

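The genes highest on mutant 1 over the mean of mutants 2 and 3 were looked up after their values were seen. The first 5 with a RefSeq symbol were the Y-linked Eif2s3y and Ddx3y, with differences of 8.42 and 5.77, then S100g, a calcium-binding protein, with 4.52, Mmp3 with 4.47, and Camp, an antimicrobial peptide of neutrophil granules, with 3.92. These are values of 1 array against 2, with no replicate check.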
